A study of Callithrix jacchus with 4 samples.

Results

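Collagen and laminin chains were followed across the cell types of marmoset primary visual cortex (V1), 7 days after ischemic injury and without injury. The members were all genes named as a collagen alpha chain (COL, a number, A, a number) or as a laminin alpha, beta or gamma chain (LAMA, LAMB or LAMC and a number) that were listed for both cohorts. This gave 49 genes, 38 of collagens and 11 of laminins, of 16383 genes listed for both. Nuclei of adult *Callithrix jacchus* were profiled on the 10x droplet platform, and unique molecular identifiers (UMIs, tags that mark single captured transcripts) were counted per gene and nucleus. In the injured cohort, 3 marmosets had unilateral injections of endothelin-1 (ET-1), a peptide that constricts blood vessels, and each gave 1 library (injured 1, 2 and 3) of V1 operculum gray matter. By the labels, the control was V1 of 3 non-lesioned adult marmosets. The study's results and methods also give uninjured animals as the control. A legend speaks of uninjured hemispheres, and another marks the contralateral V1. The comparison was therefore taken as being between animals. The control nuclei were pooled as 1 library, and how far control animals differ from each other was therefore not measured. The tests assume the spread seen among the injured libraries. Injured nuclei were isolated by ultracentrifugation and control nuclei by sorting, and they were run on different sequencers, and these differences and the injury cannot be told apart.

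Collagens are secreted proteins built from 3 alpha chains wound into a triple helix. Fibrillar types such as I and III give tissue its tensile fibers, and type IV forms the sheet-like network of basement membranes. Laminins are cross-shaped trimers of 1 alpha, 1 beta and 1 gamma chain that lie in the same membranes and bind cell surface receptors. In the brain these proteins surround blood vessels and cover the cortical surface, where astrocyte endfeet, endothelial cells, pericytes and fibroblasts meet.

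The injured libraries held 35737777 to 48722394 UMIs and the control library 22832703 UMIs, with medians of 3531 to 4504.5 UMIs per injured nucleus and 2117 per control nucleus. Between 15 and 27 cell barcodes were shared by each pair of libraries. The study annotated 7 cell types, which were astrocytes (Astro), endothelial cells (Endo), excitatory and inhibitory neurons (ExN and InN), microglia, oligodendrocytes (Oligo) and their precursors (OPC). Within a library, the UMIs of all nuclei of 1 type were added up, and a level is a chain's share of that sum, scaled to 1000000 UMIs (CPM). The sum ran over every gene listed for the cohort, 32323 for the injured and 16383 for the control. Injured levels and thinned shares therefore have a wider base than control ones, as do pooled ratios and counts of direction. The size of this difference was not measured. Fitted fold changes used only the genes listed for both cohorts. The Endo label was checked against markers, and the control nuclei under it carried mainly fibroblast markers. Of 181 control Endo nuclei, 155 (85.6%) were in a deposited cluster led by *SLC6A13* and *DCN*, which mark fibroblasts of the brain coverings. Another 26 nuclei, with 20585 UMIs in all, were in a cluster led by endothelial genes such as *VWF* and *FLT1*. In the injured libraries, fibroblast-like clusters held 13.8%, 14.4% and 18.7% of Endo nuclei and endothelial-like clusters 32.9%, 39.5% and 42.2%. The other 53.3%, 46.1% and 39.2% were in a cluster left unnamed here, in which hemoglobin *HBB* led, as it did in an injured endothelial-like cluster. The unnamed cluster also carried neuronal RNA, with the 6 excitatory neuron markers at 5957, 6103 and 5767 CPM, beside 8465, 8562 and 8898 CPM in ExN. The 3 endothelial markers were at 166, 126 and 267 CPM in the unnamed cluster. In Endo as a whole these neuronal markers summed to 1210 CPM in the control and 2600, 2429 and 1995 CPM in the injured libraries. The 6 listed fibroblast markers summed to 7242 CPM in control Endo and 1235 to 1960 CPM in injured Endo. The 3 endothelial markers summed to 848 CPM in control and 3404 to 4096 CPM in injured Endo, and the 3 listed pericyte markers to 162 CPM and 660 to 1024 CPM.

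Among the 7 cell types, Endo held the highest level of 26 of the 49 members in the control and of 24, 26 and 28 in injured 1, 2 and 3. Of all members, 24 were highest in the same cell type in all 4 libraries, and 19 of these were highest in Endo, 2 in InN, 2 in OPC and 1 in Astro. The cell types are the clusters of the study, made from these nuclei, so the source of a chain is a description without a test. The Endo group held the type I and III chains *COL1A1*, *COL1A2* and *COL3A1*, the type IV chains *COL4A1*, *COL4A2*, *COL4A3* and *COL4A5*, and the type VI chains *COL6A2* and *COL6A3*. It also held *LAMA1*, *LAMA2*, *LAMB2* and *LAMB4*, the multiplexins *COL15A1* and *COL18A1*, and *COL5A2*, *COL12A1*, *COL13A1* and *COL21A1*. Some of these were far above the next cell type, such as *LAMA2*, which was 15.9 times the next level in the control and 18.3, 17.3 and 18.7 times in injured 1, 2 and 3. Others were barely above it, such as *COL4A2*, which was 1.31 times the next level in the control and 1.11 to 1.33 times in the injured libraries. The share of all member UMIs found in Endo was 3.97% in the control library and 20.0%, 16.8% and 27.9% in injured 1, 2 and 3, while Endo held 0.894% of all control UMIs and 6.81%, 8.61% and 10.4% of injured UMIs.

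Of the 24 chains highest in the same cell type in all 4 libraries, 5 lay outside Endo. *COL25A1*, a transmembrane collagen, lay in InN at 371 CPM in the control and 408, 509 and 295 CPM in injured 1, 2 and 3, and the libraries overlapped. Its InN level was 7.40 to 15.4 times that of the next cell type in each library. *COL9A1*, a chain of the fibril-associated type IX, lay in OPC at 102 CPM in the control and 76.4, 147 and 62.1 CPM in the injured libraries, which lay on both sides of the control. *COL11A1*, a fibrillar type XI chain, was also highest in OPC in every library. *LAMB3* was highest in InN, at 11.3 CPM in the control and 17.4 to 19.6 CPM in the injured libraries. *COL17A1*, a transmembrane chain, was highest in Astro in all 4 libraries, on 183 UMIs over all cell types. *COL10A1* had 38 UMIs over all libraries and passed the low-count filter in no cell type.

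**Figure D1:**
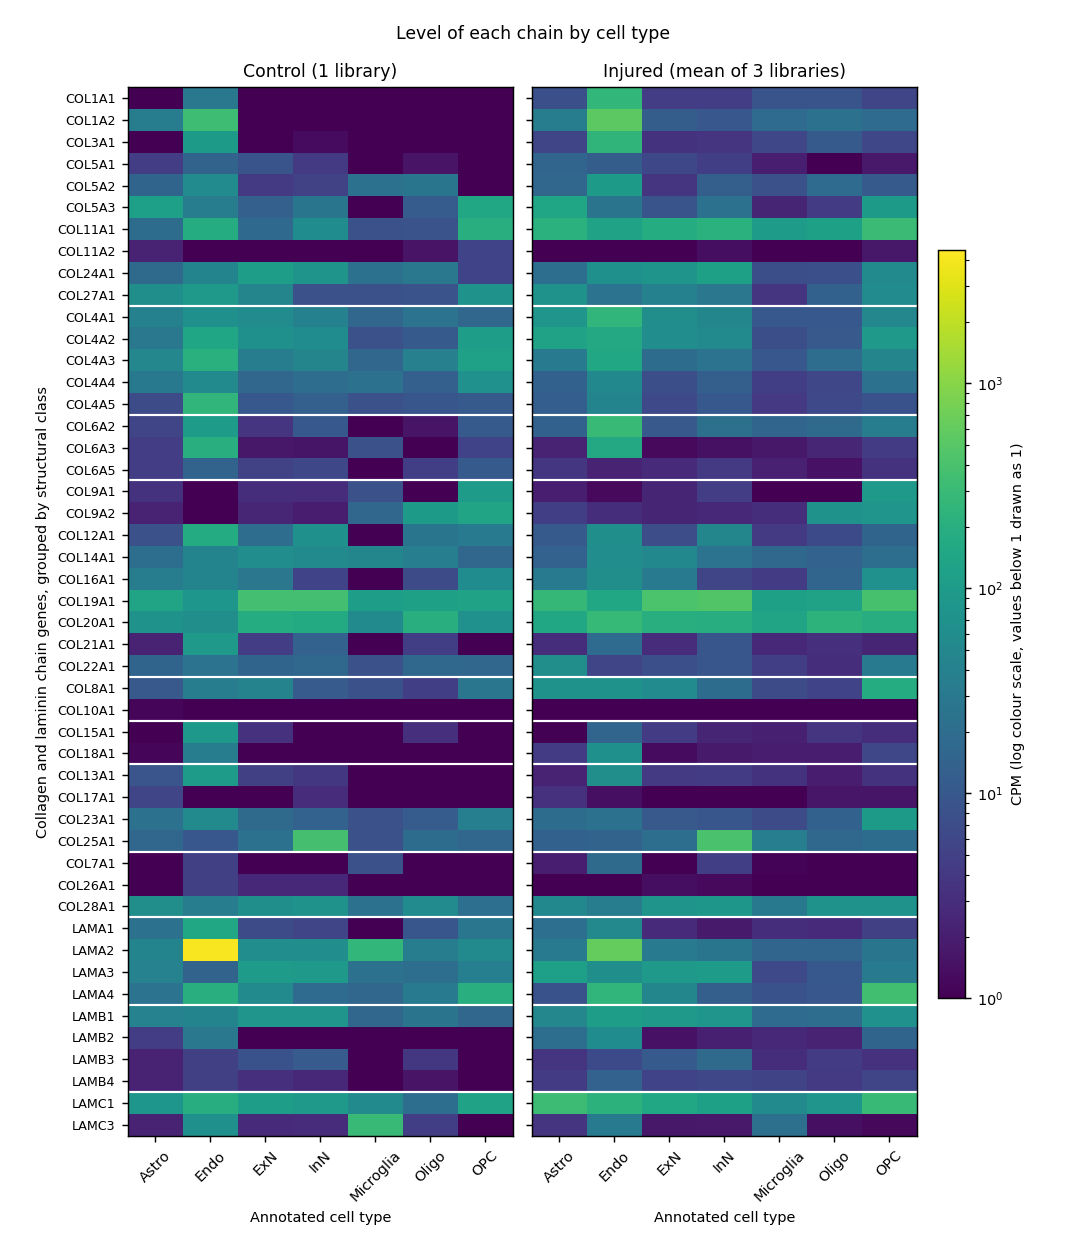
Level of 48 chains (rows, grouped by structural class) in the 7 annotated cell types (columns), as CPM on a log color scale, for the control library (left) and the mean of 3 injured libraries (right). LAMA2 in Endo goes from 4204 CPM in the control to 570 to 666 CPM in the injured libraries, and 26 members have their highest control level in Endo.

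Injured and control sums were compared within each cell type to ask which chains differed 7 days after ET-1. Few chains passed. *COL11A1* rose in Astro, ExN, InN and Oligo, *COL4A2* rose in Astro, *COL4A1* and *COL20A1* rose in Endo, *LAMA2* fell in Endo and InN, and *COL4A5* and *COL12A1* fell in Endo. The test was edgeR's quasi-likelihood test with Benjamini-Hochberg adjustment over all genes tested in the cell type, and a chain was called where its adjusted p was under 0.01, its natural-log fold change exceeded 0.25 in size and at least 10% of nuclei in 1 of the cohorts held a UMI of it. Across 296 pairs of a member and a cell type that passed the low-count filter, 11 were called, and they fell on 7 members. In Astro, 2 of 44 members tested were called, both higher, beside 1.5% of all genes called and 1.12% called higher. In Endo, 2 were higher and 3 lower of 44, beside 6.18% of all genes called, 4.19% higher and 1.99% lower. In ExN, 1 of 48 was higher, beside 3.85% of all genes called, 2.6% higher and 1.25% lower. In InN, 1 was higher and 1 lower of 43, beside 3.41% of all genes called, 2.2% higher and 1.22% lower. In Oligo, 1 of 35 was higher, beside 0.774% of all genes called, 0.619% higher and 0.155% lower. In OPC, 0 of 38 members passed edgeR's test (0.0697% of all genes, 0.061% higher and 0.00871% lower) and 0 passed with DESeq2, with 14 members and 2279 of 11476 genes at an unadjusted p below 0.05. In microglia, 0 of 44 passed edgeR's test, as did 0% of all 13470 genes, while 7 members and 2857 genes had an unadjusted p below 0.05, and DESeq2 called 1 member.

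**Figure D2:**
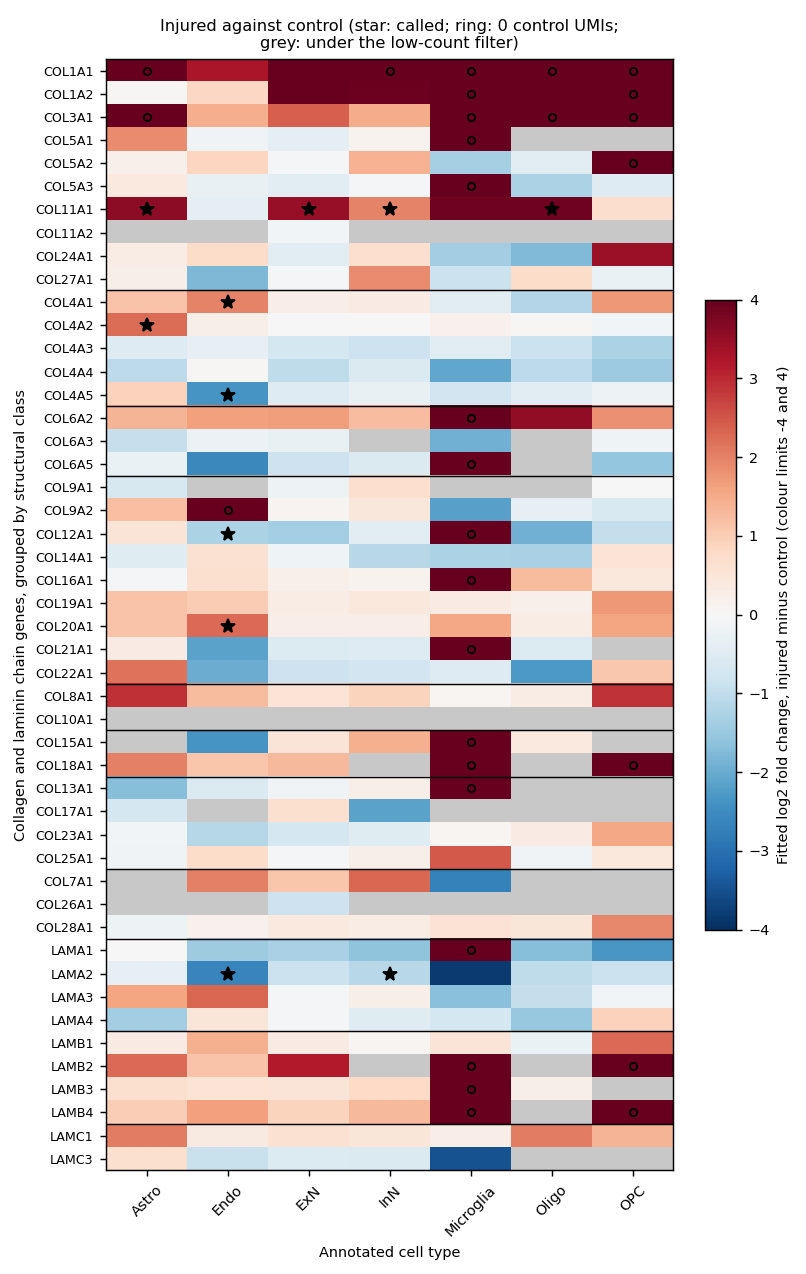
Fitted log2 fold change, injured minus control, of 48 chains (rows) in each cell type (columns). Stars mark the 11 calls, rings mark the 30 pairs drawn in which the control had 0 UMIs, for which the fitted value is no measure of size, and gray marks pairs under the low-count filter.

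Counting direction alone, all 3 injured libraries lay above the control for 21 of 44 members in Astro, where 36.0% of all genes did, and below it for 8, where 43.2% of all genes did. The corresponding counts were 20 and 18 of 44 in Endo (47.8% and 40.9% of all genes) and 15 and 18 of 48 in ExN (31.3% and 47.5%). They were 18 and 13 of 43 in InN (30.8% and 44.9%) and 10 and 16 of 35 in Oligo (32.9% and 43.5%). In OPC they were 20 and 10 of 38 (41.4% and 40.0%), and in microglia 21 and 17 of 44 (49.4% and 40.8%). The median fitted log2 fold change of members tested was 0.45 in Astro, beside 0.05 for all genes, 0.24 in InN, beside 0.00, and -0.06 in ExN, beside 0.00. In Endo it was 0.51, or 0.38 with the 2 members of 0 control UMIs set to the bound that 3 UMIs give, beside 0.26 for all genes. In microglia it was 0.42, as for all genes, and -1.55 with the 17 such members at their bound. In OPC it was 0.81, or -0.04 with 7 such members at their bound, beside 0.17, and in Oligo it was -0.26, beside 0.02. These bounds are lower limits set by control depth and were applied to the members alone. Medians that use them are not comparable with those of all genes and do not show a fall of the chains.

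*COL11A1* had the smallest p of the members in 4 of the cell types and was the 1 member called in more than 2 of them. In Astro it was 19.7 CPM in the control and 216, 201 and 231 CPM in injured 1, 2 and 3, a log2 fold change of 3.57 (SE 0.28, edgeR adjusted p = 0.00159). In ExN it was 17.8 CPM in the control and 190.1, 199 and 167 CPM in the injured libraries (log2 fold change 3.49, SE 0.18, edgeR adjusted p = 0.000755). Every injured value was above the control and the injured libraries lay close together in both cell types. In InN, where the control stood at 59.0 CPM, the injured libraries stood at 231, 234 and 184 CPM (log2 fold change 1.98, SE 0.20, edgeR adjusted p = 0.000310). In Oligo the control was at 8.61 CPM on 11 UMIs and the injured libraries at 130.4, 128 and 103 CPM (log2 fold change 3.90, SE 0.30, edgeR adjusted p = 0.00235). These 4 calls held under each alternative tried for them. In microglia the control held 1 *COL11A1* UMI, and the injured levels of 102, 112 and 89.7 CPM missed the limit (edgeR adjusted p = 0.0465).

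The rise narrowed the differences of *COL11A1* between cell types. In the control, the highest level, 203 CPM in OPC, was 25.3 times the lowest, 8.03 CPM in microglia, which rests on 1 UMI, and the next lowest was 8.61 CPM in Oligo on 11 UMIs. In the injured libraries the same 2 cell types held the highest and lowest levels, and their ratio was 3.27, 2.46 and 3.41. In OPC the injured libraries were at 332, 275 and 306 CPM, all above the control, and the difference was not called (log2 fold change 0.71, SE 0.24, edgeR adjusted p = 0.172). In Endo they were at 123, 135 and 122 CPM, all below the control at 181 CPM, and this was not called either (edgeR adjusted p = 0.311). With every nucleus thinned to 1000 UMIs, a *COL11A1* UMI was found in 2.21% of control Astro nuclei (exact 95% interval 0.959% to 4.31%) and in 18.6%, 18.3% and 21.5% of injured ones. Without thinning these shares were 2.69% and 59.2%, 44.1% and 59.7%. In thinned microglia, which are not known as a source of collagens, the share was 0 of 37 nuclei in the control, with an upper limit of 9.49%, and 9.14% to 10.5% in the injured libraries. The intervals cover counting error only, and what RNA outside the nuclei adds to these shares was not tested.

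**Figure D3:**
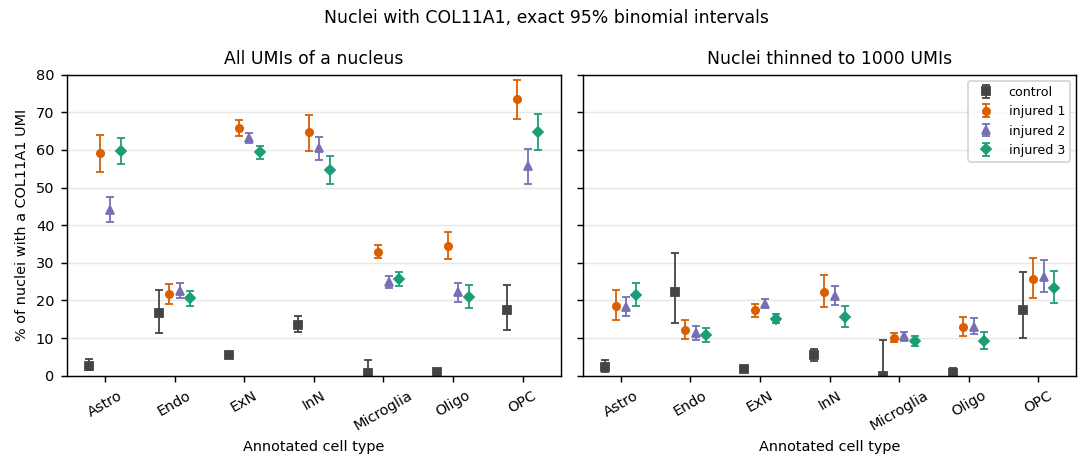
Share of nuclei with a COL11A1 UMI (vertical axis, percent) by cell type and library, for all UMIs (left) and for nuclei thinned to 1000 UMIs (right), with exact 95% binomial intervals. After thinning, the injured libraries were at 9.14% to 21.5% in Astro, microglia and Oligo and the control at 0% to 2.21%, while in Endo the control, at 22.4%, was above the injured libraries.

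Of the 5 type IV chains tested in Astro, *COL4A1*, *COL4A2* and *COL4A5* had all 3 injured libraries above the control (36% of all genes), and *COL4A3* and *COL4A4* had all below (43.2%). *COL4A2*, which winds with *COL4A1* into the common type IV trimer, was at 28.9 CPM in the control and at 107, 132 and 141 CPM in the injured libraries, and rose with a log2 fold change of 2.25 (SE 0.31, edgeR adjusted p = 0.00640). The groups did not overlap. The call was lost when only nuclei with at most 2500 genes were used (log2 fold change 1.83, edgeR adjusted p = 0.0352). Its partner *COL4A1* was at 40.5 CPM in the control and 57.5, 82.4 and 104 CPM in the injured libraries, and was not called (edgeR adjusted p = 0.105). The 3 endothelial markers summed to 113 CPM in control Astro and to 285, 418 and 339 CPM in injured Astro, mainly from *IGFBP7*, and their part in this result was not tested.

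The laminin chains *LAMC1*, *LAMA3* and *LAMB2* lay above the control in Astro without passing the limit. *LAMC1*, the gamma chain of most laminin trimers, was at 84.4 CPM in the control and 232, 265 and 462 CPM in the injured libraries (log2 fold change 2.04, SE 0.45, edgeR adjusted p = 0.0291). This was not particular to Astro, as all 3 injured libraries were above the control for *LAMC1* in 6 of 7 cell types. The interaction test given below called *LAMC1* in no cell type. *LAMA3*, an alpha chain known from epithelial basement membranes, was at 41.6 CPM against 100.0, 108 and 135 CPM (log2 fold change 1.58, edgeR adjusted p = 0.0177). *LAMB2*, the beta chain of vascular and synaptic laminins, had 4 control UMIs at 4.62 CPM against 17.8, 21.9 and 22.4 CPM (edgeR adjusted p = 0.0338). In all 3 chains the highest level was in injured 3, and the groups did not overlap. *LAMA3* passed without injured 2 (edgeR adjusted p = 0.00310) and with DESeq2 (adjusted p = 0.00488). Its highest adjusted p over 9 alternatives by edgeR or DESeq2 was 0.0907. Of the 4 laminin alpha chains tested in Astro, *LAMA3* had all 3 injured libraries above the control (36% of all genes), *LAMA2* and *LAMA4* had all below (43.2%), and *LAMA1* had values on both sides.

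Of 9 fibril-associated chains tested in Astro, 3 had all 3 injured libraries above the control (36% of all genes) and 1 had all below (43.2%). *COL19A1* was at 134 CPM in the control and 286, 311 and 229 CPM in the injured libraries (log2 fold change 1.15, SE 0.24, edgeR adjusted p = 0.0237). It had an edgeR adjusted p of 0.00812 without injured 2 and of 0.00882 without injured 3. *COL22A1* was at 15.03 CPM on 13 control UMIs and 79.4, 66.97 and 44.4 CPM in the injured libraries (log2 fold change 2.17, SE 0.45, edgeR adjusted p = 0.0242), and it too passed without injured 2 or without injured 3. Over 9 alternatives by edgeR or DESeq2, the adjusted p reached 0.0574 for *COL19A1* and 0.0817 for *COL22A1*. For both chains the groups did not overlap. *COL20A1* was at 76.3 CPM against 144, 202 and 126 CPM (edgeR adjusted p = 0.0553). All 3 injured libraries were above the control in 4 cell types for *COL19A1* and in 5 for *COL20A1*. The interaction test given below called neither chain in any cell type. *COL5A3*, a type V chain, was not called, at 116 CPM in the control and 117, 143 and 155 CPM in the injured libraries (log2 fold change 0.38, SE 0.24, edgeR adjusted p = 0.331).

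**Figure D4:**
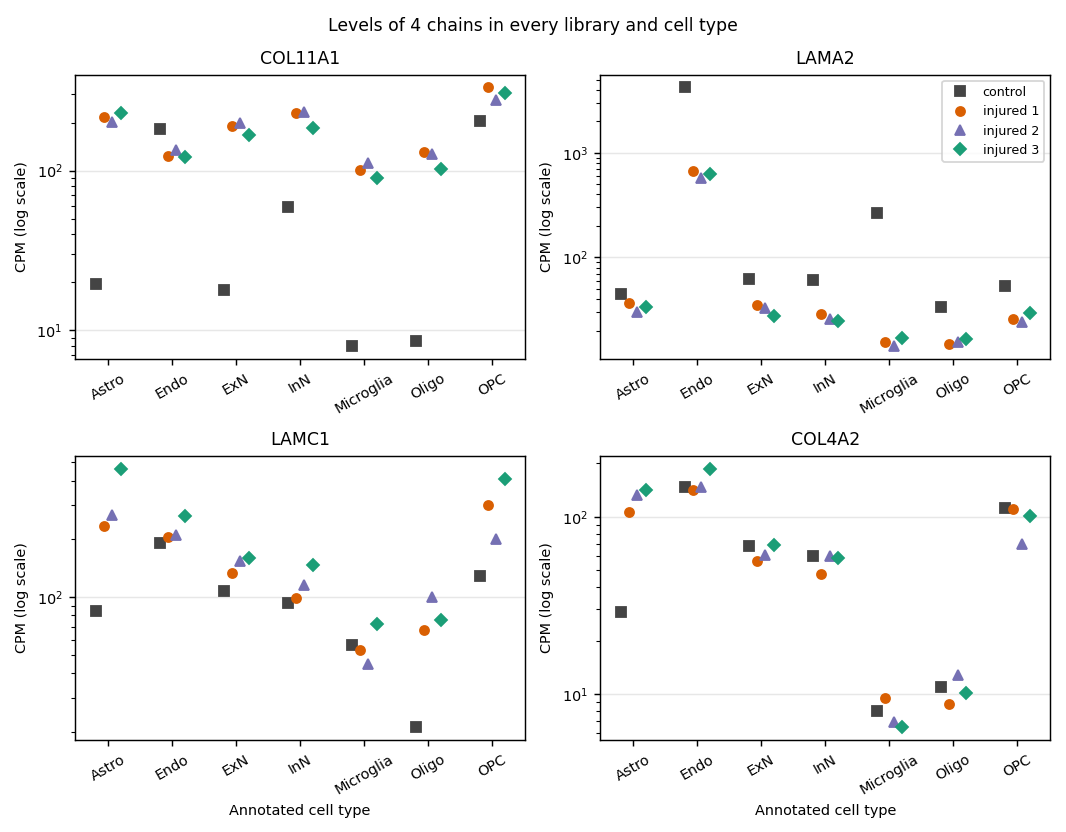
Levels of COL11A1, LAMA2, LAMC1 and COL4A2 in each library (points, CPM on a log axis) by cell type. COL11A1 in the injured libraries was above the control in 6 of 7 cell types and LAMA2 below it in 7 of 7, whereas COL4A2 separated from the control in Astro and overlapped it in Endo.

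In Endo as annotated, chains moved in both directions. *COL4A1* rose from 68.6 CPM in the control to 265, 225 and 261 CPM in the injured libraries (log2 fold change 1.997, SE 0.31, edgeR adjusted p = 0.00354). *COL20A1*, a fibril-associated chain, rose from 63.7 CPM to 303, 269 and 264 CPM (log2 fold change 2.26, SE 0.31, edgeR adjusted p = 0.00222). *LAMA2*, the alpha chain of muscle, nerve and vessel-associated laminin, fell from 4204 CPM to 666, 570 and 629 CPM (log2 fold change -2.63, SE 0.21, edgeR adjusted p = 0.000613). None of these groups overlapped. *COL4A5*, a type IV chain of kidney and other specialized basement membranes, fell from 249.9 CPM to 47.3, 38.2 and 47.2 CPM (log2 fold change -2.37, SE 0.25, edgeR adjusted p = 0.000843). *COL12A1*, which coats collagen I fibrils, fell from 176 CPM to 69.9, 60.6 and 68.5 CPM (log2 fold change -1.28, SE 0.25, edgeR adjusted p = 0.00910). *COL21A1*, a fibril-associated chain, was at 93.1 CPM on 19 control UMIs and 16.9, 18.1 and 22.2 CPM (log2 fold change -2.14, SE 0.39, edgeR adjusted p = 0.00730), and was not called because 8.29% of nuclei at most had a UMI. *COL12A1* lost its call without injured 1 (edgeR adjusted p = 0.0198), with DESeq2 (adjusted p = 0.0217) and without the unnamed cluster. Without the unnamed cluster, 2 members were higher and 2 lower of 43 tested (beside 6.21% of all genes called, 4.56% higher and 1.65% lower), with all 3 injured libraries above the control for 23 (42.9% of all genes) and below it for 14 (44.6%). The makeup of Endo given above, pericyte and neuronal markers included, moved with each of these values, from 85.6% fibroblast-like nuclei in the control to 13.8% to 18.7% in the injured libraries.

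For this reason, fibroblast-like nuclei were also compared with fibroblast-like nuclei, a comparison added after the data were seen. It held 155 control nuclei with 183510 UMIs and 141, 249 and 315 injured nuclei with 463405, 756877 and 1035128 UMIs. Of 39 members tested, 0 passed edgeR's test, beside 0.111% of all 9887 genes (0.101% higher and 0.0101% lower), and 20 members and 2103 genes had an unadjusted p below 0.05. All 3 injured libraries were above the control for 26 members (39.4% of all genes) and below it for 8 (37.1%). DESeq2 was not run on these nuclei. Without injured 2, 17 of 38 members passed (7.6% of all genes), whereas 0 of 40 passed without injured 1 (0.515%) and 1 of 38 without injured 3 (0.989%). The members include *COL1A1*, *COL1A2*, *COL3A1* and *COL6A3*, which were among the genes that led the injured fibroblast-like cluster. These counts are therefore a description and no test of the members against all genes.

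Markers of other cell types moved in these nuclei too. The 3 endothelial markers summed to 398 CPM in the control and 958, 622 and 867 CPM in the injured libraries, and the 4 listed microglia markers to 218 CPM and 732, 620 and 441 CPM, and their part in the values that follow was not tested.

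*LAMA2* in fibroblast-like nuclei was at 4675 CPM in the control and 2505, 2090 and 1922 CPM in the injured libraries. The groups did not overlap, and the log2 fold change was -1.05 (SE 0.24, edgeR adjusted p = 0.0538), closer to 0 than in Endo as a whole. *COL4A5* was at 278 CPM in the control and 205, 135 and 141 CPM in the injured libraries (log2 fold change -0.76, edgeR adjusted p = 0.207). *COL12A1* turned its direction, from 196 CPM in the control to 326, 272 and 271 CPM (log2 fold change 0.61, edgeR adjusted p = 0.253). *COL4A1* stood at 59.9 CPM on 11 control UMIs and 548, 159 and 395 CPM in the injured libraries (log2 fold change 2.65, SE 0.78, edgeR adjusted p = 0.113). *COL20A1* stood at 59.9 CPM and 209, 213 and 159 CPM (log2 fold change 1.74, SE 0.40, edgeR adjusted p = 0.0555). *LAMB1*, the common laminin beta chain, stood at 43.6 CPM on 8 control UMIs and 395, 173 and 315 CPM (log2 fold change 2.79, SE 0.63, edgeR adjusted p = 0.0535). The 5 chains called in Endo kept their direction here apart from *COL12A1*, and none of them was called.

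The type I and III chains and the type VI chains *COL6A2* and *COL6A3* were higher in the injured libraries than in the control in these nuclei. *COL1A1* was at 32.7 CPM on 6 control UMIs and at 1390, 423 and 1487 CPM in injured 1, 2 and 3. *COL1A2* was at 371 CPM in the control and 2950, 1148 and 2900 CPM, and *COL3A1* was at 109 CPM and 1422, 370 and 1338 CPM. All 3 chains had every injured library above the control, and injured 2 was the lowest for each. *COL6A3*, an alpha chain of the microfibrils that link cells to collagen, was at 223 CPM in the control and 913, 527 and 824 CPM in the injured libraries. These 4 genes were among the 10 that led the injured fibroblast-like cluster, so their values are a description without a test. *COL6A2*, which was not among them, was at 114 CPM in the control and 1499.8, 481 and 1172 CPM in the injured libraries (log2 fold change 3.24, SE 0.68). The clusters were made from these same nuclei, so the values of *COL6A2* are a description too. In Endo as annotated these chains did not separate as far, and *COL6A3* was not above the control. *COL1A2* was at 333 CPM in the control and 624, 269 and 746 CPM, with injured 2 below the control. *COL6A3* was at 200.9 CPM in the control and 177, 97.0 and 199.5 CPM. Of the 3 type VI chains tested in Endo, *COL6A2* had all injured libraries above the control (47.8% of all genes). *COL6A3* and *COL6A5* had all below (40.9%), and for *COL6A3* injured 3 was nearly level with the control, at 199.5 against 200.9 CPM.

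**Figure D5:**
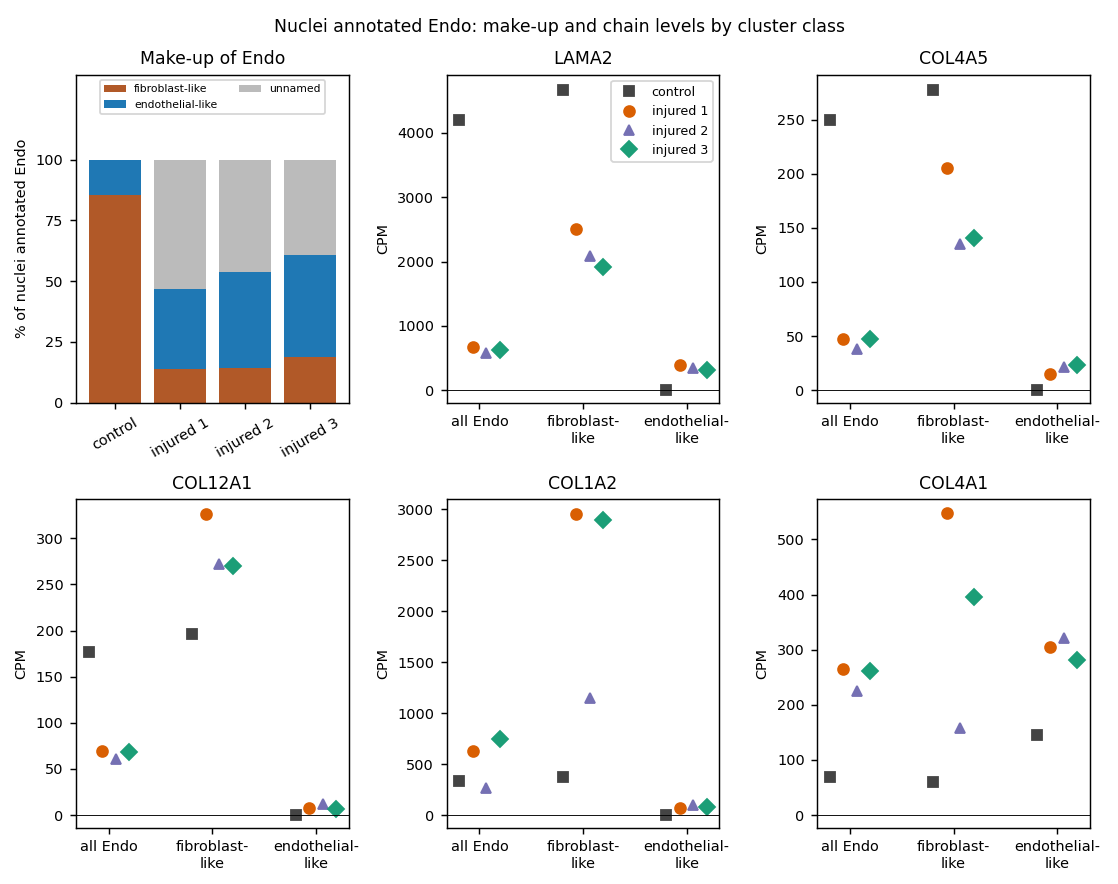
Makeup of the nuclei annotated Endo in each library (top left, percent of nuclei by cluster class) and the levels of 5 chains in CPM for all Endo nuclei, fibroblast-like nuclei and endothelial-like nuclei. The control bar is 85.6% fibroblast-like, and COL12A1 is highest in the control for all Endo nuclei and lowest in the control for fibroblast-like nuclei.

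In endothelial-like nuclei the control held 20585 UMIs in all, and its median fitted log2 fold change over all genes was 5.42, so values are given without a call. All 3 injured libraries were above the control for 31 of 41 members (60.9% of all genes) and below it for 5 (34.1%), with 0.0267% of all genes called, all of them higher. The 3 listed pericyte markers were at 0 in the control and summed to 1519, 1151 and 1722 CPM in the injured libraries, and their part in the values that follow was not tested. *COL4A1* stood at 304, 321 and 282 CPM in the injured libraries and at 146 CPM, or 3 UMIs, in the control, a pooled ratio of 2.07 with a counting interval of 0.707 to 10.04. *LAMA2* had 0 control UMIs and stood at 383, 342 and 319 CPM in the injured libraries, which when pooled were at least 2.34-fold higher than the level that 3 control UMIs would give. This direction is opposite to that in Endo as a whole. *LAMC1* was at 219, 203 and 249 CPM in the injured libraries and at 243 CPM on 5 UMIs in the control, and *LAMA4*, an alpha chain of vessel endothelium, at 262, 232 and 362 CPM against 340.1 CPM on 7 UMIs. For both, the pooled ratio had a counting interval that included 1, from 0.396 to 2.86 and from 0.416 to 2.14.

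Small numbers of collagen I and III UMIs were also counted in cell types not known to make them. Over the 6 cell types without Endo, *COL1A1*, *COL1A2* and *COL3A1* together had 57 UMIs in the control, 30 of them *COL1A2* in Astro, and 953, 618 and 1467 UMIs in injured 1, 2 and 3. In ExN, *COL1A1* had 1 control UMI and 68, 63 and 111 injured UMIs, a pooled ratio of 72.8 with a counting interval of 12.9 to 2885. *COL1A2* in ExN had 7 control UMIs and 153, 169 and 320 injured UMIs (log2 fold change 4.94, SE 0.77, edgeR adjusted p = 0.00749). Both had an adjusted p below 0.01 in ExN and were not called, because 1.16% to 9.86% of injured nuclei had a UMI. The mix of the 3 chains outside Endo was 22.04%, 62.7% and 15.2% for *COL1A1*, *COL1A2* and *COL3A1* in injured 1, and it was 24.1%, 51.2% and 24.7% in the fibroblast-like nuclei of that library. In injured 2 the mix was 22.5%, 60.2% and 17.3% outside Endo and 21.8%, 59.2% and 19.1% in fibroblast-like nuclei. In injured 3 it was 23.0%, 57.5% and 19.6% outside Endo and 26.0%, 50.7% and 23.4% in fibroblast-like nuclei. The pooled mix hides differences between cell types, on small counts. In Astro it was 15.7%, 76.5% and 7.83% in injured 1, 15.9%, 72.9% and 11.2% in injured 2 and 18.2%, 64.6% and 17.2% in injured 3. In InN of injured 1 it was 26.5%, 53.1% and 20.4%. RNA outside the nuclei as a source of these UMIs was not tested.

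*LAMA2* lay below the control in all 3 injured libraries in each of the 7 cell types. In InN it fell from 61.3 CPM to 28.8, 25.8 and 24.5 CPM (log2 fold change -1.12, SE 0.19, edgeR adjusted p = 0.00490), a call that was lost without injured 1 (adjusted p = 0.0120) or injured 3 (adjusted p = 0.0141) and with DESeq2, thinning or at most 2500 genes per nucleus. In ExN it was at 62.8 CPM in the control and 35.3, 33.0 and 27.3 CPM in the injured libraries (log2 fold change -0.87, SE 0.16, edgeR adjusted p = 0.0131). In microglia, it was at 265 CPM in the control and 15.7, 14.3 and 16.9 CPM in the injured libraries (log2 fold change -3.83, SE 0.25, edgeR adjusted p = 0.0172). The control value there rested on 33 UMIs, found in 4.65% of 129 nuclei (exact 95% interval 1.73% to 9.85%), and in the injured libraries 6.34%, 3.45% and 5.32% of nuclei had a UMI. The 6 listed fibroblast markers summed to 273 CPM in control microglia, with 5 of 6 above 0 and *MFAP5* at 0, and to 32.0 to 59.3 CPM in injured microglia, and their part in this value was not tested. Of those control UMIs, 29 were *CEMIP*. *FLT1*, an endothelial marker, had 71 UMIs in control microglia, while *IGFBP7* and *SLC2A1* were at 0.

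*LAMC3*, a laminin gamma chain, also lay below the control in microglia. It was at 297 CPM in the control, from 37 UMIs in 20.2% of nuclei, and at 37.2, 19.5 and 9.51 CPM in the injured libraries, with a UMI in 9.78%, 3.71% and 2.66% of nuclei. The groups did not overlap, and the difference was not called by edgeR (log2 fold change -3.49, SE 0.85, adjusted p = 0.0965) but was called by DESeq2 (adjusted p = 8.18e-07). *COL20A1* in microglia was at 56.2 CPM on 7 UMIs in the control and 134, 159 and 119 CPM in the injured libraries (edgeR adjusted p = 0.113). Of the 44 members tested in microglia, 17 had 0 control UMIs, and the 129 control nuclei held 124463 UMIs in all.

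In OPC, *COL8A1*, a short-chain collagen of vessel and corneal matrix, had the smallest p. It was at 26.7 CPM on 5 UMIs in the control and 207, 135 and 206 CPM in the injured libraries (log2 fold change 2.90, SE 0.52, edgeR adjusted p = 0.0489), and its edgeR adjusted p was 9.73e-10 without injured 2, 0.00138 without injured 3 and 0.123 without injured 1. *COL19A1* in OPC was at 128 CPM and 399.6, 301 and 467 CPM (log2 fold change 1.73, SE 0.35, edgeR adjusted p = 0.0620). *LAMA4* was at 203 CPM and 352, 378 and 318 CPM (log2 fold change 0.91, SE 0.24, edgeR adjusted p = 0.105). For each of these 3 genes the groups did not overlap. The 6 astrocyte markers summed to 1091 CPM in control OPC, with *GFAP* and *AQP4* at 0, and to 1305, 841 and 1354 CPM in injured OPC, where *GFAP* was at 501, 208 and 578 CPM, and their part in these values was not tested. *COL4A3* and *COL4A4*, which wind with *COL4A5* into the type IV network of specialized basement membranes, had log2 fold changes of -1.27 (edgeR adjusted p = 0.0847) and -1.45 (edgeR adjusted p = 0.116) in OPC.

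In Oligo, *LAMC1* was at 21.1 CPM in the control and 67.6, 99.6 and 75.5 CPM in the injured libraries (log2 fold change 2.04, SE 0.33, edgeR adjusted p = 0.0163). It passed with DESeq2 (adjusted p = 0.000812), with thinning (adjusted p = 0.00128) and without injured 2 (adjusted p = 0.00885). The highest adjusted p of *LAMC1* over 9 alternatives by edgeR or DESeq2 was 0.0194. *COL6A2* in Oligo had 2 control UMIs and 45, 27 and 37 injured UMIs, a pooled ratio of 11.3 with a counting interval of 3.06 to 94.7 (edgeR adjusted p = 0.0334). *COL12A1* was not called in Oligo (log2 fold change -1.92, SE 0.39, edgeR adjusted p = 0.0279). In ExN it was at 20.2 CPM in the control and 6.92, 7.41 and 7.67 CPM in the injured libraries (log2 fold change -1.34, SE 0.18, edgeR adjusted p = 0.00498), and it was not called because 6.15% of nuclei at most had a UMI. In InN, *COL27A1*, a fibrillar chain of cartilage, had a log2 fold change of 1.91 (SE 0.42, edgeR adjusted p = 0.0161), and *COL4A3* one of -0.82 (SE 0.22, edgeR adjusted p = 0.0305).

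Whether the difference between cohorts itself differed between cell types was tested as an interaction over all 28 sums, with each cell type set against the mean of the other 6 and library as a block. Of 48 members tested, 8 pairs of a member and a cell type passed edgeR's test, 4 of them in Endo (3.38% of all genes), 2 in Astro (0.528%), 1 in microglia (2.53%) and 1 in OPC (0.19%). For *COL11A1*, the log2 fold change in Endo was lower than the mean of the others by 3.31 (SE 0.32, edgeR adjusted p = 2.69e-06), and that in OPC lower by 1.97 (SE 0.31, edgeR adjusted p = 0.00555). For *LAMA2*, the change in microglia was lower by 2.67 (SE 0.26, edgeR adjusted p = 1.28e-06) and in Endo by 1.30 (SE 0.16, edgeR adjusted p = 3.09e-05), while that in Astro was higher by 1.37 (SE 0.23, edgeR adjusted p = 0.00414). The microglial value rested on the few control UMIs given above. The Astro value was set against a mean that includes microglia and Endo, and in Astro itself *LAMA2* lay below the control in every injured library. *COL4A5* in Endo was lower by 2.15 (SE 0.36, edgeR adjusted p = 0.000674). The other 2 of the 8 pairs were *COL1A2* in Astro and in Endo, whose mean of the others included microglia and OPC with 0 control UMIs, and they are not read as a difference. That leaves 6 pairs on 3 members. Of these, *COL11A1* in Endo, *LAMA2* in microglia and Endo and *COL4A5* in Endo passed in each of 4 alternatives, which left out each injured library in turn or the library block. *COL11A1* in OPC no longer passed without injured 1, 2 or 3 (edgeR adjusted p = 0.0212 to 0.0536), nor did *LAMA2* in Astro (edgeR adjusted p = 0.0206 to 0.0284). The Endo values carry the difference in makeup between cohorts described above. None of the 8 was in ExN, InN or Oligo, where 0.25%, 0.129% and 0.305% of all genes passed.

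Among other genes of the pathway, 5 were called, in Endo, Astro or ExN, where 6.18%, 1.5% and 3.85% of all genes were called. Of 6 listed basement membrane partners, *SPARC*, a collagen-binding glycoprotein, rose in Endo from 83.3 CPM to 734, 658 and 889 CPM (log2 fold change 3.32, SE 0.35, edgeR adjusted p = 0.000858), and the other 5 were called in no cell type. Of 13 receptors, *ITGB1*, the beta subunit of the collagen- and laminin-binding integrins, rose in Endo (log2 fold change 2.59, SE 0.29, edgeR adjusted p = 0.00105) and in Astro (log2 fold change 2.48, SE 0.30, edgeR adjusted p = 0.00442). In Astro it was at 34.7 CPM in the control and 218, 156 and 167 CPM in the injured libraries. *ITGA10*, a collagen-binding alpha subunit, fell in Endo from 122 CPM to 15.6, 13.6 and 21.3 CPM (log2 fold change -2.72, SE 0.41, edgeR adjusted p = 0.00310). Of 16 listed chain-processing genes, *SERPINH1*, the collagen chaperone of the endoplasmic reticulum, rose in Endo from 4.90 CPM on 1 UMI to 244, 328 and 312 CPM (edgeR adjusted p = 0.000843), a pooled ratio of 61.9 with a counting interval of 11.1 to 2445. *ADAMTS3*, a procollagen protease, fell in ExN from 77.6 CPM to 16.3, 16.4 and 15.2 CPM (log2 fold change -2.17, SE 0.13, edgeR adjusted p = 0.000755). None of the calls fell on the 7 listed genes of matrix proteases and their inhibitors, the TIMPs. The Endo values of *SPARC*, *ITGB1*, *ITGA10* and *SERPINH1* moved with the same makeup, from 85.6% fibroblast-like nuclei in the control to 13.8% to 18.7% in the injured libraries, and its part in them was not tested.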

How the data were processed

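Single-nucleus RNA was captured on the 10x platform from 3 injured libraries and 1 control library. The authors made the deposited UMI counts per gene and nucleus with Cell Ranger 3.1.0 against the marmoset genome calJac3 and annotated cell types in Seurat. By the study's methods, doublets were removed with Scrublet in the injured cohort and by Seurat quality limits on gene number in the control. The upper control limit given was 2500 genes, but of 8610 deposited control nuclei 7418 had at most 2500 genes. UMIs do not correct for length, so levels of different chains were not ranked; the percent mix of *COL1A1*, *COL1A2* and *COL3A1* compares places, not chains. Counts were summed per library and annotated cell type with Python 3.11.15 and tested in R 4.3.3 with edgeR 4.0.16 (TMM factors, low-count filter, quasi-likelihood test, Benjamini-Hochberg adjustment over all genes). The script was tested on simulated data. DESeq2 1.42.0, other scaling, no filter, thinning to 1000 UMIs per nucleus, nuclei of at most 2500 genes and leaving out each injured library were alternatives; the split of Endo by deposited cluster was added after the data were seen. Intervals are exact 95% intervals, and a fold against 0 control UMIs used a floor of 3 UMIs. Libraries were numbered in accession order. P-values measure only the spread between these libraries.

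The members, structural classes and pathway lists were chosen with earlier results of these data known. Named are all members called, the 5 smallest p per cell type, members called in the interaction, chains that assemble together, 6 chains listed for astrocytes by the study, and those highest in 1 cell type in all 4 libraries. Of 55 member symbols listed for the injured cohort, 6 were not listed for the control and were not compared here: *COL2A1*, *COL4A6*, *COL6A1*, *COL8A2*, *COL9A3* and *LAMA5*. In the injured libraries *COL8A2* had 1 UMI in microglia of injured 1 and 2 UMIs in microglia of injured 2, and the others had 0 UMIs. *COL6A6*, listed under an Ensembl identifier alone, was not matched by the rule. For 1 member, which stays in the counts, values are not reported here, and the heat maps leave it out.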

Additional observations from a re-analysis of the deposited data

Results flagged for a closer look

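The difference between cohorts itself differed between cell types for 3 members in 6 pairs of a member and a cell type, by edgeR's interaction test with library as a block and Benjamini-Hochberg adjustment. Each value is the log2 fold change in the named cell type minus the mean of the other 6. For *COL11A1* it was -3.31 in Endo and -1.97 in OPC, the cell types with the highest control levels. For *LAMA2* it was -2.67 in microglia, -1.30 in Endo and 1.37 in Astro. For *COL4A5* it was -2.15 in Endo. The microglial value of *LAMA2* rested on few control UMIs, as given above. Its Astro value was set against a mean that includes microglia and Endo, and in Astro itself *LAMA2* lay below the control in all 3 injured libraries. Without any 1 of the 3 injured libraries, *COL11A1* in OPC and *LAMA2* in Astro no longer passed, and the other 4 pairs did. A further 2 pairs passed for *COL1A2*, at -5.54 in Astro and -4.69 in Endo, but both are set against a mean that includes cell types with 0 control UMIs and are not read as a difference. Without the library block, or without injured 1, neither of these passed, and without injured 3 that in Astro did not. The Endo values moved with the share of fibroblast-like nuclei, 85.6% in the control and 13.8% to 18.7% in the injured libraries, and the part of that share in them was not tested here beyond the matched comparison of fibroblast-like nuclei.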

How the results depend on the processing

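Of the alternative values of 35 named fold changes, 285 kept direction and side of the limit, 26 newly passed, 15 no longer passed and 1 reversed. *COL12A1* in Endo reversed to 0.61 in fibroblast-like nuclei; the cause was not tested. Members called changed in Astro (2) to 5 with DESeq2, 1 with at most 2500 genes and 6 at an adjusted p limit of 0.05; in Endo (5) to 0 with fibroblast-like nuclei alone and 0 with endothelial-like nuclei alone, each with fewer nuclei; in ExN (1) to 2 with DESeq2, 2 thinned and 3 at 0.05; in InN (2) to 5 at 0.05; in microglia (0) to 1 with DESeq2 and 1 at 0.05; in Oligo (1) to 2 without a low-count filter, 2 with DESeq2, 2 thinned and 2 at 0.05; in OPC (0) to 1 at 0.05; and in fibroblast-like nuclei (0) to 4 at 0.05. Over all genes the calls in those settings moved too: in Astro (187) to 340, 86 and 891, in Endo (816) to 11 and 3, in ExN (582) to 1169, 469 and 1834, in InN (443) to 1433, in microglia (0) to 301 and 347, in Oligo (90) to 204, 206, 170 and 502, in OPC (8) to 136 and in fibroblast-like nuclei (11) to 244. Leaving out each injured library gave 2 to 8 in Astro, 4 to 10 in Endo, 1 to 3 in ExN, 1 to 6 in InN, 1 to 2 in Oligo, 0 to 9 in OPC, 0 to 17 in fibroblast-like nuclei and 5 to 6 in the interaction. The highest of each range came without injured 2, tied in the interaction with that without injured 3. Calls over all genes moved in the same fits, from 82 to 716 in Astro, 513 to 1617 in Endo, 77 to 920 in ExN, 245 to 1541 in InN, 48 to 195 in Oligo, 0 to 820 in OPC and 52 to 694 in fibroblast-like nuclei. The shares of members and of all genes called in these fits were not compared by a test, and the ranges are a description only. With library size as the only scaling, the microglial median over all genes tested was 0.17 in place of 0.42 (log2).

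No paired analysis was possible because the control is 1 pooled library and library numbers follow accession order. In the interaction, library served as a replicate block for sums of 1 library, and without that block 6 pairs of a member and a cell type passed in place of 8. Control depth limits microglia, OPC and Endo most: 129, 171 and 181 nuclei.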
